A study of Homo sapiens with 6 samples.

Results

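Ribosome biogenesis and nucleolar genes are described here as a set of 42 protein-coding genes chosen by symbol, all of which were found among the 56638 gene rows of the count table. RNA was taken from MOLM-13, an established cell line from a human acute myeloid leukaemia, after 24 h with 2 µM UC-764864 or with DMSO, its solvent. UBE2N, the enzyme that UC-764864 inhibits according to the series title, joins ubiquitin into chains used in signalling, while the design text spells the compound UC-744864. UDI0051, UDI0052 and UDI0053 are the UC-764864 libraries, and UDI0054, UDI0055 and UDI0056 the DMSO libraries. Both groups were of the same line in the same medium, and no separate cultures are named. The tests therefore weigh differences against the spread of these libraries alone, which could be technical.

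Ribosomes are built in the nucleolus, where RNA polymerase I transcribes the long precursor of the ribosomal RNAs, while RNA polymerase III makes the small ribosomal RNA and the transfer RNAs. Small nucleolar ribonucleoproteins (snoRNPs) guide methylation (box C/D type) or pseudouridylation (H/ACA type) of that precursor. Assembly factors then fold, cut and export the small and the large subunit along separate routes. Growing leukaemia cells rely on this supply, and many of its genes are textbook targets of the transcription factor MYC.

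Total counts per library ran from 16136156 to 25014437. UDI0055 holds 0 in 3799 rows at the end of chromosome 22 and for X-linked, Y-linked, mitochondrial and unplaced genes. These zeros were read as missing values, so 41 members were tested in all 6 libraries and the X-linked DKC1 in the other 5. UDI0052 and UDI0056 stood apart from the rest, with 18.6% and 18.2% of counts in genes of at least 57.3% GC against 21.6% to 24.1% elsewhere. Of the 10 myeloid markers CD33, MPO, LYZ and SPI1 were well above background, but CD14 and CD68 were at most 0.474 and 0.721 CPM (counts scaled to library size). The summed level of the myeloid list ran from 5869 to 6789 CPM in treated libraries and from 3548 to 3732 CPM in DMSO libraries, most of it LYZ. ITGAM, CSF1R and CEBPA of that list were lower in every treated library (at most 19.0, 38.9 and 10.3 CPM, against at least 31.2, 47.9 and 11.4 CPM), and the part of this list in the results was not tested. Lymphoid and erythroid-megakaryocyte lists summed to at most 2.65 CPM, with CD3G, MS4A1, NCR1, HBA1, HBA2 and PF4 at 0 throughout. Stromal and epithelial markers summed to 18.8 to 20.4 CPM in treated and 19.1 to 22.8 CPM in DMSO libraries, most of it KRT18. UBE2N itself stood at 159 ± 10.9 CPM in treated and 189 ± 17.0 CPM in DMSO libraries (SD, n = 3 per group), which did not pass (edgeR adjusted p = 0.156).

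The set shifted upward by a modest amount. Of the 41 members tested in 6 libraries, 14 rose and 0 fell after UC-764864 (edgeR quasi-likelihood test, Benjamini-Hochberg adjusted p under 0.05). That is 34.1% of the members, against 5.11% of all 13490 genes tested. No member had an unadjusted p under 0.05 for a fall, and DESeq2 likewise called 0 lower. The median log2 fold change (UC-764864 over DMSO) of the members was 0.37, against 0.01 for all genes tested, and 38 members lay above 0. The largest was 0.65, so none reached a doubling. For 28 members the 3 UC-764864 libraries all lay above the 3 DMSO libraries, 68.3% of the members against 19.0% of all genes. In RNA from whole cultures, a higher level in every cell and a larger share of cells with a high level cannot be told apart.

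**Figure D1:**
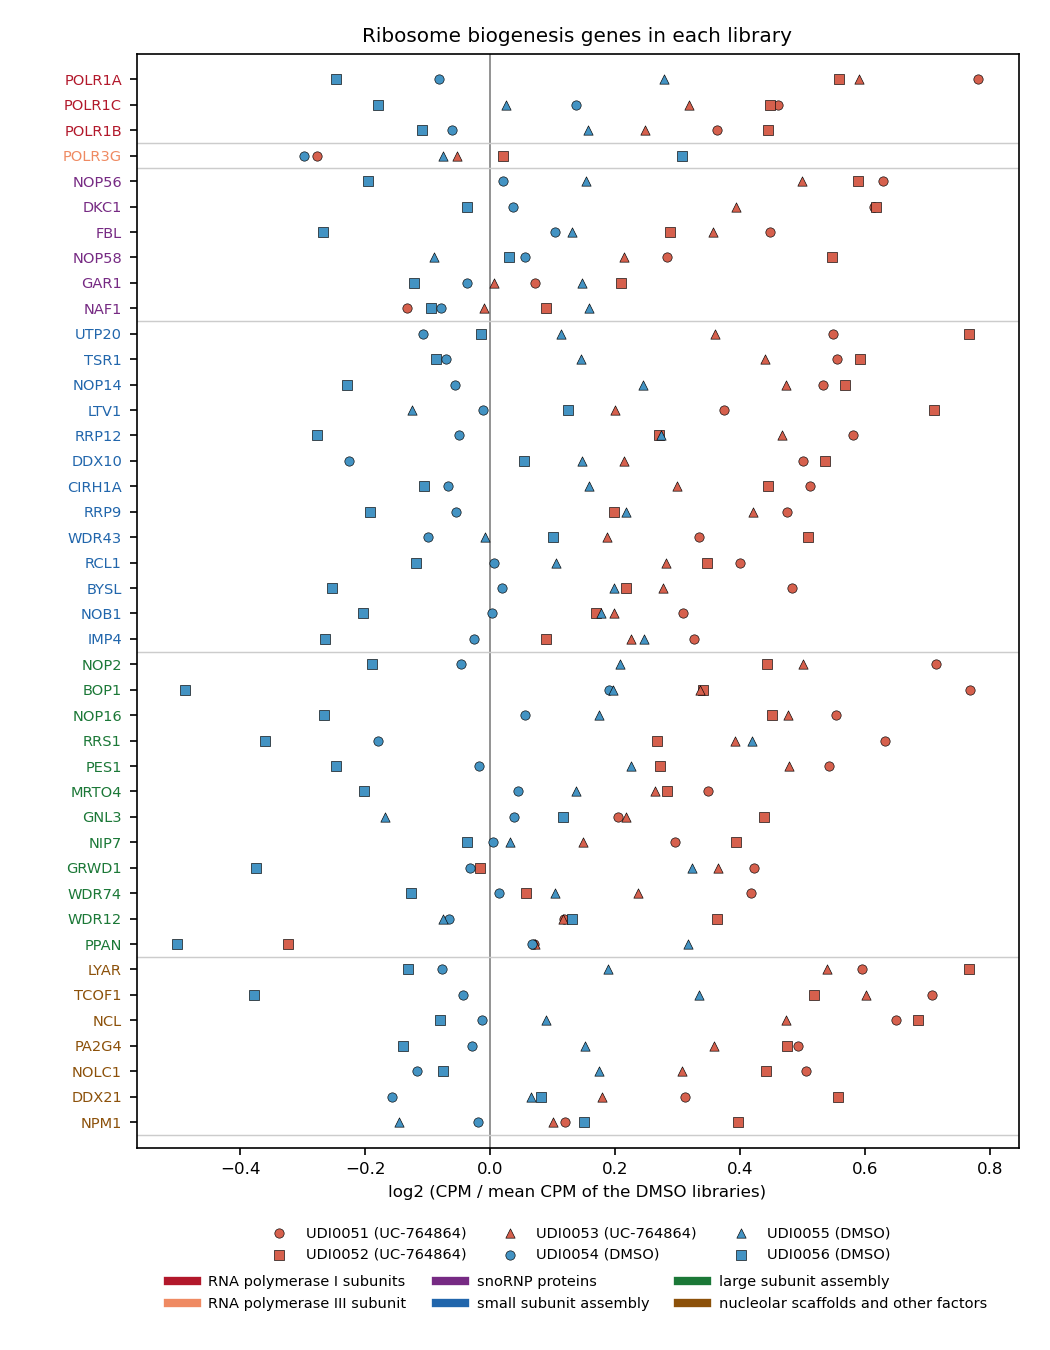
Level of each member in each library, as log2 of its CPM over the mean CPM of the DMSO libraries, grouped by role; red symbols are UC-764864 and blue symbols DMSO. Red symbols lie to the right of blue ones for 28 of 41 members (DKC1 lacks UDI0055), while POLR3G, GAR1, NAF1 and PPAN are mixed.

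Promoter sequences are shown first because MYC and related factors bind the E-box CACGTG, and this motif was common near the starts of these genes. RefSeq windows (GRCh38.p14, 250 bases before to 50 after a gene's start) were at hand for 34 of the 42 members. At least 1 window held CACGTG, a palindrome that reads the same on both strands, for 17 of these 34 genes. The share was 12.9% of the 9377 tested genes with a window and 24.8% of 153 other ribosome biogenesis genes. Counted by window, it was 39.5% of 43 against 9.53% of the 13600 windows of tested genes. Of the 18 matches in members, 16 began within 40 bases of the start (88.9%). The share was 27.7% of the 2821 matches in all RefSeq windows, whether of tested genes or not. At or after the start began 12 of the 18 matches in members and 312 of the 2821 in all windows. Such matches lie outside the bases printed below. The 250 bases before the start are printed 5′ to 3′ for 2 members that rose and hold a match, the small subunit factors UTP20 (chr12:101279855-101280104, plus strand) and CIRH1A, now named UTP4 (chr16:69132399-69132648, plus strand), and for NCL, which has the smallest p and no match (chr2:231464485-231464734, minus strand). Capitals mark the E-box.
UTP20: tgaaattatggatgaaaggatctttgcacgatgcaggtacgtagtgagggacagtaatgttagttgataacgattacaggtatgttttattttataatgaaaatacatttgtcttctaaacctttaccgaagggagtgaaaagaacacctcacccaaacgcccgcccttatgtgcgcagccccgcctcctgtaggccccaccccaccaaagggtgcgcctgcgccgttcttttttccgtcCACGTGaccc
CIRH1A: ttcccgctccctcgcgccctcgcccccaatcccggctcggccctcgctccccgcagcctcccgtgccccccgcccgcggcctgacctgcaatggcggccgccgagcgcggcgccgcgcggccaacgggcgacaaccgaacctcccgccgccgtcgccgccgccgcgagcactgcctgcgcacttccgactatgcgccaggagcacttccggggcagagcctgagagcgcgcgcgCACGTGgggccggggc
NCL: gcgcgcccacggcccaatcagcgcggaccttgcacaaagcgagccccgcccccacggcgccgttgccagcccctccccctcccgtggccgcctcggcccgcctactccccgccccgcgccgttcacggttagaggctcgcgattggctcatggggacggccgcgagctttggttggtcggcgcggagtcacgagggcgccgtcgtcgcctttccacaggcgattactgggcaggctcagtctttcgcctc
The E-box began 10 bases before the start in UTP20 and 16 bases before it in CIRH1A. A match was held by 5 of 12 called members with a window (41.7%) and by 12 of 21 uncalled ones (57.1%). By role, 9 of 12 small subunit factors held a match and 0 of 3 RNA polymerase I genes did. A match is a string of letters and says nothing of binding in these cells. MYC, the textbook E-box factor, stood at 736, 625 and 711 CPM in the treated libraries and at 489, 595 and 443 CPM in the DMSO libraries. Its log2 fold change was 0.44 ± 0.13 SE (edgeR adjusted p = 0.0437), and the call was lost without any library but UDI0055 (0.0529 to 0.189). A link between MYC and the members was not tested.

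Of the 3 RNA polymerase I genes, POLR1A and POLR1C passed and POLR1B did not. POLR1A, the largest subunit with the catalytic centre, had the largest fold change of the set. It stood at 174, 149 and 153 CPM in UDI0051, UDI0052 and UDI0053, and at 95.9, 123 and 85.5 CPM in UDI0054, UDI0055 and UDI0056. The groups did not overlap, with UDI0055 the highest DMSO library, and POLR1A rose 1.56-fold (log2 fold change 0.65 ± 0.14 SE, edgeR adjusted p = 0.0172). POLR1C, a subunit shared by RNA polymerases I and III, was at 77.6, 76.8 and 70.3 CPM against 62.0, 57.4 and 49.7 CPM. These groups were also apart, by a smaller gap, and POLR1C rose by 0.41 ± 0.12 (adjusted p = 0.0464). POLR1B, the second largest subunit, was at 112, 119 and 104 CPM against 83.6, 97.2 and 80.9 CPM, without overlap, but did not pass (0.35 ± 0.12, edgeR adjusted p = 0.0683). POLR1A was lost if UDI0051, UDI0053 or UDI0054 was left out (adjusted p of 0.0514 to 0.0852), and POLR1C without any library but UDI0055 (0.0845 to 0.201). The POLR1C call also ended with RLE scaling factors (0.0544) and with scaling by library size only (0.0687).

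POLR3G, a subunit of RNA polymerase III with the relative POLR3GL, was the one member of its role and had the lowest fold change of the set. Its level was 23.4, 28.8 and 27.4 CPM in the UC-764864 libraries and 23.1, 27.0 and 35.1 CPM in the DMSO libraries. The groups overlapped almost fully, and the highest value was that of DMSO library UDI0056. The log2 fold change of −0.10 ± 0.16 did not pass (edgeR adjusted p = 0.723). POLR3G also has the lowest GC content of the members, 37.3%, and its sign turned to 0.08 without UDI0056 (adjusted p = 0.758) and to 0.31 with each library's GC trend removed (adjusted p = 0.0264). The log2 ratio of POLR3G to POLR3GL was −0.55 ± 0.20 after UC-764864 and −0.45 ± 0.32 after DMSO (SD, n = 3 per group), a difference within the spread. This ratio was below 0 in every library.

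**Figure D2:**
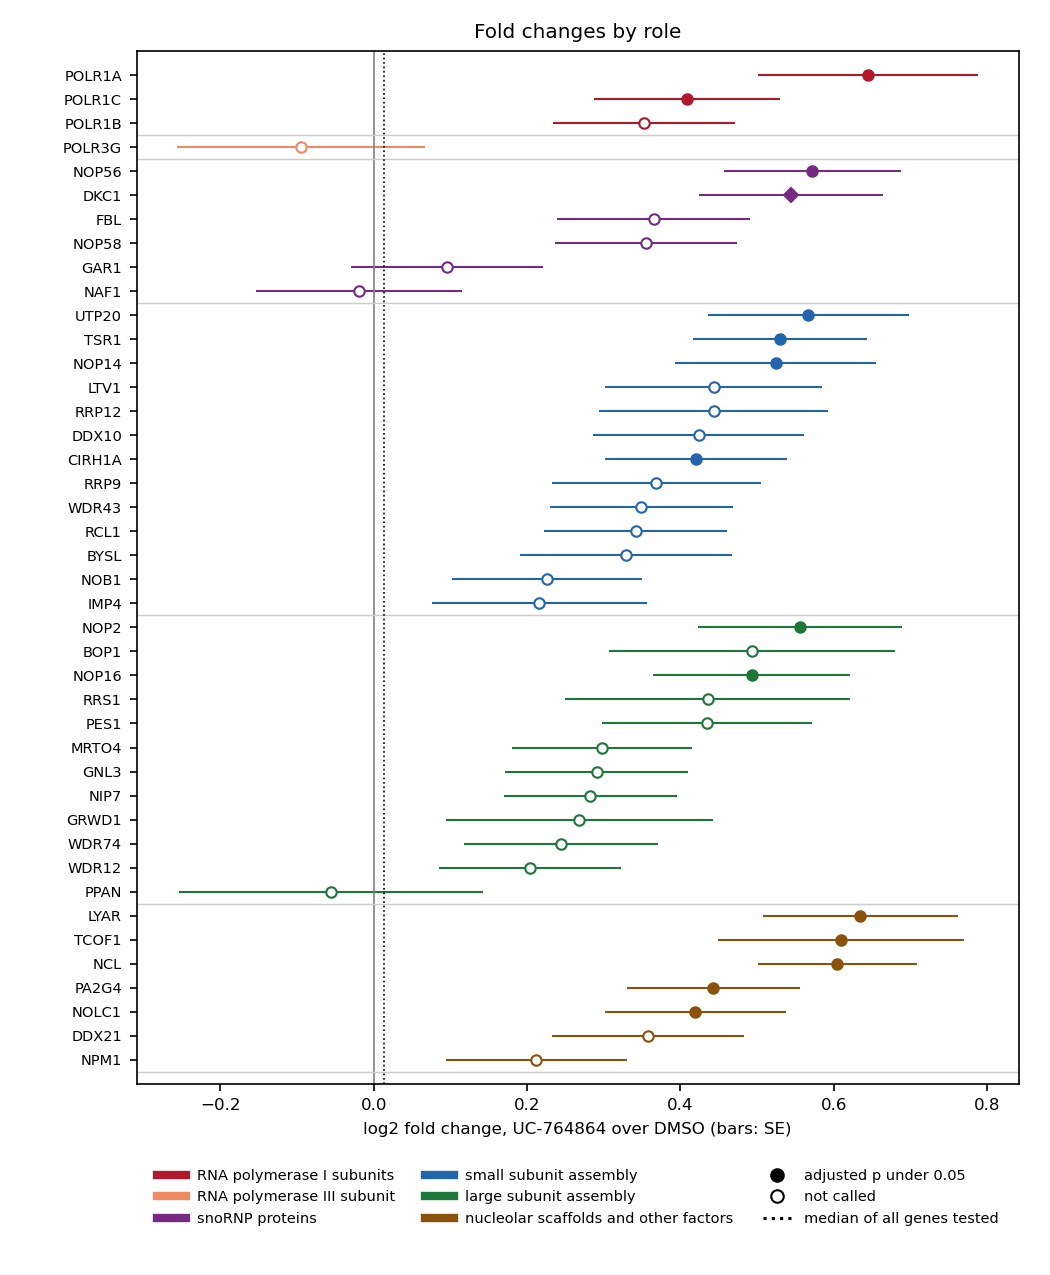
Log2 fold change of each member (UC-764864 over DMSO) with its SE, grouped by role, filled where the adjusted p was under 0.05; the dotted line is the median of all genes tested, 0.01, and the diamond is DKC1, fitted on 5 libraries. Of the members in 6 libraries, 38 lie above 0 and 14 are filled.

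Among snoRNP proteins, the box C/D partners NOP56, NOP58 and FBL were each higher in every UC-764864 library than in any DMSO library. NOP56, a core scaffold of that particle, was at 693, 675 and 634 CPM against 455, 499 and 392 CPM. The gap between the groups was wider than the range within either, and NOP56 rose 1.49-fold (0.57 ± 0.12, edgeR adjusted p = 0.0127). NOP58, the partner of NOP56 in the particle, stood at 297, 356 and 283 CPM against 254, 229 and 249 CPM. FBL, the fibrillarin methyltransferase, stood at 525, 470 and 493 CPM against 414, 421 and 320 CPM. Neither passed (0.35 ± 0.12 and 0.37 ± 0.13, edgeR adjusted p = 0.068 and 0.0731). The log2 ratio of NOP56 to FBL was 0.43 ± 0.08 after UC-764864 and 0.23 ± 0.08 after DMSO (SD, n = 3 per group), with no overlap. That of NOP56 to NOP58 was 1.10 ± 0.16 and 0.87 ± 0.24, and that of NOP58 to FBL −0.67 ± 0.24 and −0.65 ± 0.26, both with overlap. With the GC trend removed, NOP58 had the largest fold change of the 3 (0.46, against 0.38 for NOP56 and 0.23 for FBL). NOP56 was lost without UDI0051 or UDI0054 (adjusted p = 0.0665 and 0.0509).

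The H/ACA proteins were less uniform. DKC1, the dyskerin pseudouridine synthase, stood at 246, 247 and 211 CPM in UDI0051, UDI0052 and UDI0053 and at 165 and 157 CPM in UDI0054 and UDI0056. Its 2 DMSO values lay well below the 3 treated ones, and in the fit on 5 libraries it rose by 0.54 ± 0.12 (edgeR adjusted p = 0.00865), where 9.88% of 14186 genes were called higher. That call was lost without UDI0056, which leaves 1 DMSO library assumed to vary like the other group (adjusted p = 0.0516). NAF1, which helps assemble the particle and then leaves it, was at 16.04, 18.7 and 17.5 CPM against 16.7, 19.6 and 16.5 CPM, fully mixed (−0.02 ± 0.13, adjusted p = 0.935). GAR1, a structural partner of DKC1, had 34.7 ± 2.51 CPM in treated and 32.4 ± 3.13 CPM in DMSO libraries (0.10 ± 0.12, adjusted p = 0.633). The sign of NAF1 and of GAR1 turned with other settings and neither passed in any.

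All 13 small subunit factors lay above 0, with log2 fold changes of 0.22 to 0.57 and a median of 0.42. The 4 that rose, or 30.8% against 5.11% of all genes, were UTP20, TSR1, NOP14 and CIRH1A. UTP20, a large scaffold of the small subunit processome, was at 89.1, 104 and 78.1 CPM against 56.5, 65.9 and 60.3 CPM (0.57 ± 0.13, edgeR adjusted p = 0.0192). TSR1, which caps late precursors of the small subunit in the cytoplasm, was at 203, 208 and 188 CPM against 132, 153 and 130 CPM (0.53 ± 0.11, adjusted p = 0.0154). Both showed separate groups, with UDI0053 the lowest treated and UDI0055 the highest DMSO library. NOP14, another processome protein, stood at 182, 186 and 174 CPM against 121, 149 and 107 CPM (0.52 ± 0.13, adjusted p = 0.0256). CIRH1A, the processome protein cirhin, stood at 155, 148 and 134 CPM against 104, 122 and 101 CPM (0.42 ± 0.12, adjusted p = 0.0399). UDI0055 was again the DMSO library nearest to the treated ones. NOP14 is uncertain, since the table has the antisense gene NOP14-AS1 and no strand setting of the counting is given. IMP4, a protein bound to the U3 snoRNP, had the smallest difference of this role, at 124, 105 and 116 CPM against 97.3, 117 and 82.4 CPM. Here UDI0055 lay above UDI0052 and UDI0053, so the groups overlapped (0.22 ± 0.14, adjusted p = 0.312).

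The other 8 factors of this role did not pass, with adjusted p from 0.0585 for LTV1 to 0.234 for NOB1. Separate groups, with the treated libraries higher, were seen in 5 of them. In the whole role the share was 69.2%, against 19.0% of all genes. LTV1, an export adaptor, went from 121 ± 10.5 to 165 ± 30.3 CPM, with most of its spread from UDI0052 at 198 CPM. RRP12, an export factor, DDX10, an RNA helicase, and RRP9, a U3 snoRNP protein, had log2 fold changes of 0.44 ± 0.15, 0.42 ± 0.14 and 0.37 ± 0.14. The value of DDX10 is uncertain, as 1 pseudogene copy of it also holds counts. WDR43 and BYSL, factors of early and late assembly, had 0.35 ± 0.12 and 0.33 ± 0.14, and the cyclase-like RCL1 had 0.34 ± 0.12. NOB1, the endonuclease of the last cut of the small subunit RNA, had 0.23 ± 0.12. Of the 4 calls, TSR1 was lost without UDI0051 or UDI0054 (adjusted p = 0.0824 and 0.0733), UTP20 without UDI0051, UDI0052 or UDI0054 (0.0635 to 0.0911), NOP14 without UDI0051, UDI0052, UDI0053 or UDI0054 (0.0654 to 0.105), and CIRH1A without any library but UDI0055 (0.0674 to 0.202).

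Large subunit factors had a lower median, 0.29, and 2 of 12 (16.7%, against 5.11% of all genes) rose, although 11 lay above 0. The gap between the small and the large subunit was not tested. With the GC trend removed the medians were 0.32 for the small and 0.28 for the large subunit. In the wider lists of other genes, given below, they were 0.28 and 0.29. NOP2, a methyltransferase of the large subunit RNA and a proliferation antigen, was at 147, 122 and 127 CPM against 86.9, 104 and 78.7 CPM (0.56 ± 0.13, edgeR adjusted p = 0.0218). NOP16, an early assembly factor, was at 142, 132 and 135 CPM against 100, 109 and 80.5 CPM (0.49 ± 0.13, adjusted p = 0.0299). In both, the groups were separate and UDI0056 was the lowest library. PPAN, a factor of early large subunit precursors, did not differ beyond its spread, at 12.9, 9.84 and 12.9 CPM against 12.9, 15.3 and 8.70 CPM (−0.06 ± 0.20, adjusted p = 0.869). Its values are uncertain, since the table also has the overlapping readthrough gene PPAN-P2RY11, listed at 0 in every library, and how shared reads were treated is not stated. NOP2 was lost if UDI0051, UDI0053 or UDI0054 was left out (0.0646 to 0.127) and NOP16 without any library but UDI0055 (0.0505 to 0.138).

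The PeBoW complex, which processes the large subunit RNA, consists of PES1, BOP1 and WDR12, none of which passed. PES1 went from 158 ± 25.8 to 213 ± 20.4 CPM (0.43 ± 0.14, adjusted p = 0.0566) and BOP1 from 44.6 ± 11.1 to 63.0 ± 11.3 CPM (0.49 ± 0.19, adjusted p = 0.0969), both with separate groups. WDR12 went from 169 ± 13.9 to 195 ± 19.6 CPM with overlap (0.20 ± 0.12, adjusted p = 0.26). With the GC trend removed all 3 were called higher (0.30, 0.55 and 0.38 for PES1, BOP1 and WDR12). The log2 ratios among the 3 genes all overlapped between groups, and that of PES1 to WDR12 ranged from −0.48 in UDI0056 to 0.32 in UDI0051, with UDI0052 and UDI0056 the lowest library of each. PES1 and BOP1 transcripts hold 58.0% and 65.4% GC and those of WDR12 40.2%, and 1 pseudogene copy of PES1 also holds counts. Of the remaining factors, MRTO4, NIP7 and GNL3, also named nucleostemin, had separate groups (0.30, 0.28 and 0.29), while RRS1, GRWD1 and WDR74 overlapped (0.44, 0.27 and 0.24), and none of these 6 passed (adjusted p from 0.109 to 0.313).

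Nucleolar scaffolds and other factors gave the largest share of calls, 5 of 7 (71.4%, against 5.11% of all genes), with a median of 0.44. NCL, nucleolin, an abundant RNA-binding protein of the nucleolus, stood at 2657, 2721 and 2351 CPM against 1679, 1802 and 1602 CPM. Its groups were far apart relative to their spread, it had the smallest p of the set (0.60 ± 0.10, edgeR adjusted p = 0.00678), and it was the only member called in each of the 6 fits that left out 1 library. LYAR, a zinc finger protein of pre-ribosomal particles, was at 79.7, 89.7 and 76.7 CPM against 50.02, 60.1 and 48.2 CPM (0.63 ± 0.13, adjusted p = 0.0123). TCOF1, the treacle scaffold that recruits RNA polymerase I, was at 203, 178 and 189 CPM against 121, 157 and 95.7 CPM (0.61 ± 0.16, adjusted p = 0.0307). The groups were separate for both, and the DMSO libraries of TCOF1 spread most, from UDI0056 to UDI0055. NOLC1, a snoRNP chaperone that binds the same factors as treacle, stood at 348, 333 and 303 CPM against 226, 276 and 233 CPM (0.42 ± 0.12, adjusted p = 0.0389). PA2G4, a growth regulator found in pre-ribosomes, stood at 450, 444 and 410 CPM against 314, 355 and 291 CPM (0.44 ± 0.11, adjusted p = 0.0276), a value that is uncertain because 3 pseudogene copies of it also hold counts.

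DDX21, a helicase that links RNA polymerase I transcription with processing, went from 434 ± 38.9 to 556 ± 75.0 CPM without overlap but did not pass (0.36 ± 0.13, adjusted p = 0.0778). NPM1, nucleophosmin, a chaperone often mutated in acute myeloid leukaemia, had the smallest difference of this role. It stood at 2371, 2870 and 2340 CPM against 2153, 1971 and 2420 CPM, so that UDI0056 lay above UDI0051 and UDI0053 (0.21 ± 0.12, adjusted p = 0.241). Its level is uncertain too, as 18 pseudogene copies hold counts. The log2 ratio of NCL to NPM1 was 0.03 ± 0.12 after UC-764864 and −0.36 ± 0.23 after DMSO (SD, n = 3 per group) and did not overlap. The closest values were −0.08 in UDI0052 and −0.13 in UDI0055, and UDI0052 and UDI0056 were the lowest library of each group. With the GC trend removed, NCL had a log2 fold change of 0.44 and NPM1 of 0.27. LYAR was lost without UDI0054 (adjusted p = 0.0596), TCOF1 without UDI0051, UDI0052, UDI0053 or UDI0054 (0.0502 to 0.118), and NOLC1 and PA2G4 without any library but UDI0055 (0.061 to 0.194 and 0.0525 to 0.143).

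Members were not ordered alike across the treated libraries. UDI0051 was the highest of that group for 22 of 41 members and UDI0053 the lowest for 23, while UDI0052 was highest for 18 and lowest for 15. In the DMSO group, UDI0055 was highest for 32 and UDI0056 lowest for 30. The median of the members over the DMSO mean, on the log2 scale, was 0.47, 0.44 and 0.30 in UDI0051, UDI0052 and UDI0053, and −0.01, 0.16 and −0.12 in UDI0054, UDI0055 and UDI0056. The 2 groups of medians did not overlap, and the closest pair was UDI0053 and UDI0055. Members share these libraries, so their calls are not independent of each other.

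More members passed with GC content taken into account. Transcripts of the members held a median of 49.3% GC, the same as all genes tested, with a range from POLR3G to BOP1 of 37.3% to 65.4%. Across the 41 members, GC content and log2 fold change had a Pearson r of 0.15, and of −0.29 once the GC trend was removed (genes that share libraries, not independent replicates). With each library's GC trend removed, 30 of 41 members (73.2%) were higher, against 13.3% of 12189 genes, and the median fold change of the members was 0.30. All 14 calls remained, and 16 members were added, among them NPM1, NOP58, FBL, DDX21, WDR12 and POLR3G. DDX10, DDX21 and WDR12, of low GC content, then had 0.54, 0.50 and 0.38, while MRTO4, NOB1 and IMP4 had 0.11, 0.04 and 0.11. GAR1, NAF1 and PPAN stayed near 0 (−0.03, −0.11 and −0.10).

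**Figure D3:**
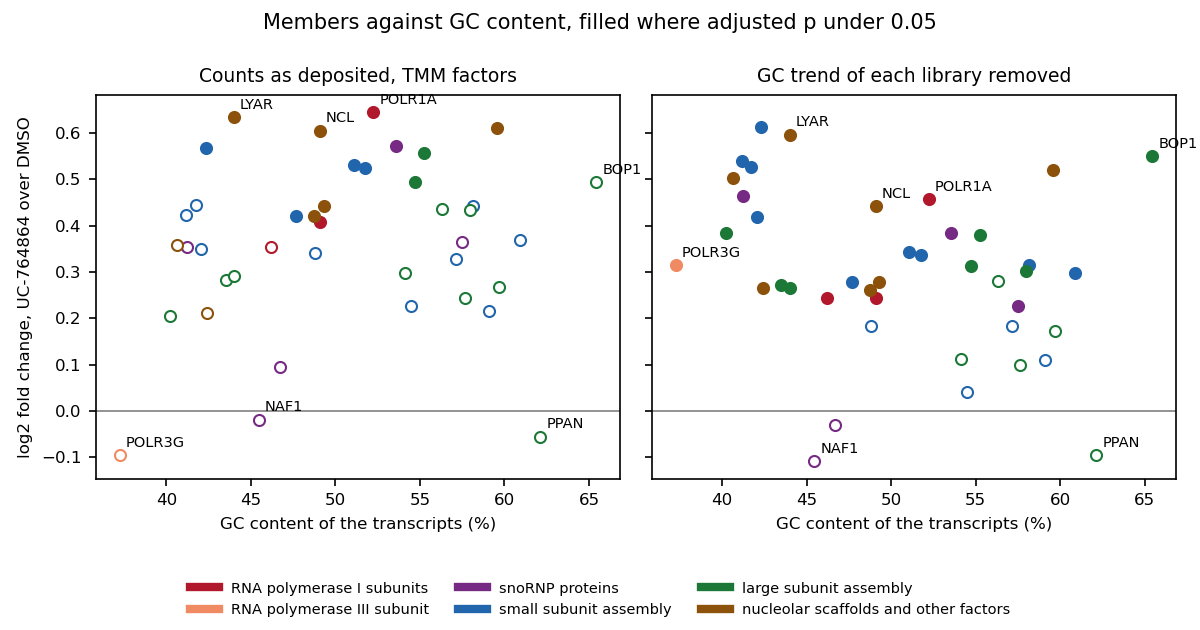
Log2 fold change of the 41 members against the GC content of their transcripts. The left panel is the reported fit on rows held by all libraries, and the right panel has each library's GC trend removed. Filled circles have an adjusted p under 0.05 and colours give the role. The number of filled circles is 14 on the left and 30 on the right, and POLR3G moves from −0.10 to 0.31.

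Other genes of the pathway were taken from 7 lists by function, of which 6 had a median above 0 and the snoRNA host genes one below. Of 178 tested, 36 rose (20.2%, against 5.11% of all genes) and 4 fell (2.25%, against 8.13%), with a median of 0.21. The number that rose was 3, 16, 14 and 4 without UDI0051, UDI0052, UDI0053 and UDI0054 (0.452%, 2.12%, 1.19% and 0.69% of all genes). It was 62 without UDI0055, 85 with the GC trend removed and 2 with every row as deposited (11.1%, 13.3% and 0.157% of all genes). The number that fell was 12 of 177 with the GC trend removed, against 17.6% of all genes, and 9 without UDI0055, against 1729 of all 13680 genes. It was 1 with every row as deposited or without UDI0051, UDI0053 or UDI0054, against 125, 278, 460 and 475 of all genes. In the wider small subunit list 12 of 47 rose, led by the processome GTPase BMS1 (from 78.6 to 133 CPM, 0.76 ± 0.12, edgeR adjusted p = 0.00512) and AATF (0.62 ± 0.13, adjusted p = 0.0134). In the wider large subunit list 15 of 55 rose, led by MDN1, the giant ATPase that strips assembly factors off (0.63 ± 0.11, adjusted p = 0.00726), and the methyltransferase FTSJ3 (0.78 ± 0.14, adjusted p = 0.00869). BMS1, MDN1 and FTSJ3 passed in each fit that left out 1 library, and AATF was lost without UDI0051 or UDI0054 (adjusted p from 0.0599 to 0.0682). RSL24D1, a large subunit placeholder protein, fell by 0.74 ± 0.18 (adjusted p = 0.0242), from 228 to 384 CPM in DMSO libraries to 151 to 201 CPM, and was lost if UDI0051, UDI0053 or UDI0054 was left out (0.0596 to 0.1). The export adaptor NMD3 and the kinase RIOK3 lay below 0 without passing (−0.37 ± 0.16 and −0.42 ± 0.14, adjusted p = 0.146 and 0.0671), as did KRR1 (−0.34 ± 0.17, adjusted p = 0.211). Of X-linked genes fitted on 5 libraries, UTP14A, TSR2, GNL3L and LAS1L had log2 fold changes of 0.52, 0.55, 0.74 and 0.70, all called (edgeR adjusted p from 0.00418 to 0.0157). That fit has only 2 DMSO libraries and called 9.88% of 14186 genes higher. Fits with a further library left out are not given for these genes.

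Polymerase genes beyond the members held 6 that rose and 0 that fell, with 1 at an unadjusted p under 0.05 for a fall, TAF1B, and 0 called lower by DESeq2. In the RNA polymerase I list 1 gene was called lower in 3 other fits. These were the fit with the GC trend removed, that with all rows and UDI0055 left out, and that without UDI0052 and UDI0056. For RNA polymerase I, 2 of 12 rose (16.7%, against 5.11% of all genes), the subunits CD3EAP (0.62 ± 0.17, edgeR adjusted p = 0.0323) and POLR1E (0.45 ± 0.11, adjusted p = 0.0241), while the promoter factor genes TAF1B and TAF1D lay at −0.34 ± 0.14 and −0.34 ± 0.16 (adjusted p = 0.115 and 0.185). For RNA polymerase III, 4 of 25 rose and 23 lay above 0, among them POLR3K (0.61 ± 0.15, adjusted p = 0.0249) and POLR3B (0.48 ± 0.13, adjusted p = 0.0323). Here SNAPC3 and SNAPC1 had the lowest p below 0 (−0.15 ± 0.14 and −0.08 ± 0.19, adjusted p = 0.5 and 0.797). Of 12 snoRNP assembly genes 1 rose (8.33%, near the 5.11% of all genes), the ATPase RUVBL1 (0.64 ± 0.12, adjusted p = 0.011), NHP2L1 came next (0.41 ± 0.13, adjusted p = 0.0582), and RPAP3 and ZNHIT3 lay at −0.09 ± 0.16 and −0.07 ± 0.13. These 5 calls were each lost without UDI0051 or UDI0054 (adjusted p from 0.0509 to 0.149), all but RUVBL1 also without UDI0053, and POLR1E, CD3EAP and POLR3B also without UDI0052. With the GC trend removed, 4 of 12, 11 of 25 and 8 of 12 genes of these 3 lists were higher, against 13.3% of all genes.

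Exosome subunits, which trim ribosomal RNA precursors, had a median of 0.10, and 2 of 13 rose (15.4%, against 5.11% of all genes). These were EXOSC7 (0.49 ± 0.14, edgeR adjusted p = 0.0407) and EXOSC2 (0.42 ± 0.12, adjusted p = 0.0404). Both were lost without any library but UDI0055 (adjusted p from 0.0524 to 0.214), and DIS3 and EXOSC5 lay at −0.14 ± 0.14 and −0.09 ± 0.16. snoRNA host genes, whose introns carry the guide RNAs of snoRNPs, were the one list with a median below 0, −0.09. Of 14 tested, 3 fell (21.4%, against 8.13%) and 0 rose, with 2 at an unadjusted p under 0.05 for a rise. DESeq2 called 4 lower and 0 higher. The number that fell was 8 with the GC trend removed (median −0.24, against 17.6% of all genes lower), 5 without UDI0055, and 1 with every row as deposited or without UDI0051, UDI0053 or UDI0054. SNHG6 fell 1.68-fold, from 463, 417 and 485 CPM after DMSO to 261, 250 and 300 CPM (−0.75 ± 0.12, edgeR adjusted p = 0.0047), and passed in each fit that left out 1 library. SNHG5 fell by 0.51 ± 0.12 (adjusted p = 0.0199) and was lost if UDI0051, UDI0053 or UDI0054 was left out (0.0542 to 0.135). GAS5, which the naming rule does not cover and which was picked with its values known, went down by −0.46 ± 0.12 (adjusted p = 0.0304), and was lost without UDI0051, UDI0053, UDI0054 or UDI0056 (0.0515 to 0.162). SNHG3 and SNHG12 lay above 0 without passing (0.32 ± 0.12 and 0.29 ± 0.13, adjusted p = 0.0883 and 0.139).

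**Figure D4:**
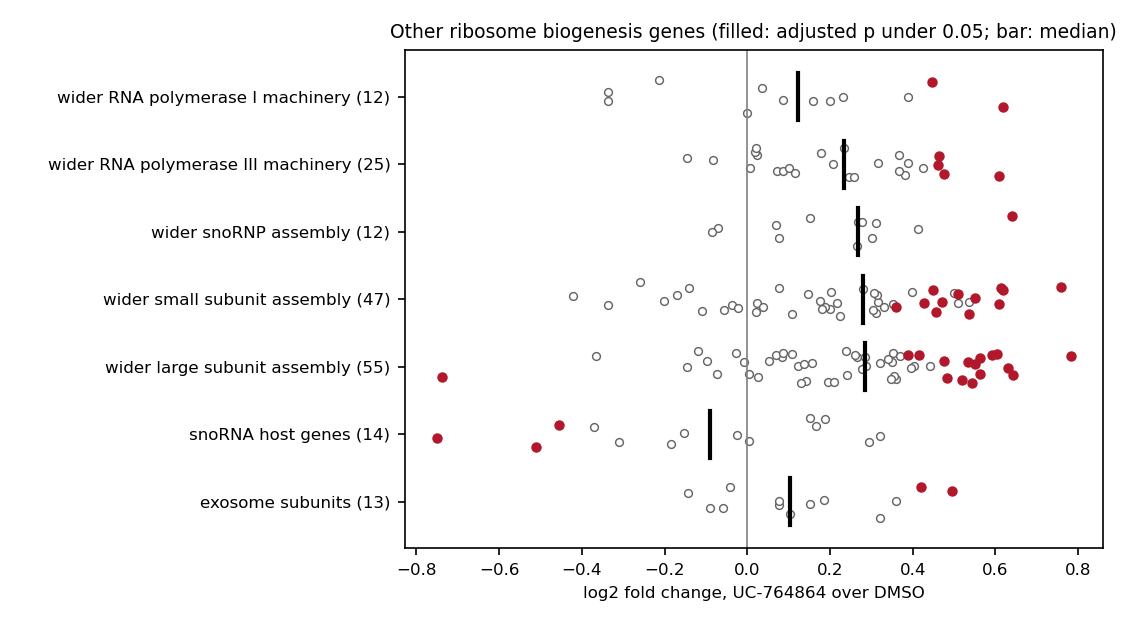
Log2 fold change (UC-764864 over DMSO) of 178 other ribosome biogenesis genes in 7 lists, with the number tested in brackets; filled points have an adjusted p under 0.05 and bars are medians. Rises prevail in the small and large subunit lists (12 and 15 filled above 0), and the 3 filled snoRNA host genes lie below 0.

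The count of members called depended on single libraries more than on the direction of the shift. Without UDI0054 only NCL passed (0.69% of all genes were higher in that fit), without UDI0051 only NCL and LYAR (0.452%), without UDI0053 5 members (1.19%) and without UDI0052 6 (2.12%). Without UDI0055 there were 24 (11.1% of all genes), among them all 14 reported, so the number of members called fell and rose with that of all genes. Scaling by library size only ended the calls of POLR1C, CIRH1A and NOLC1 (adjusted p from 0.0507 to 0.0687), and leaving out both UDI0052 and UDI0056 those of POLR1C, CIRH1A, PA2G4 and NOLC1 (0.0622 to 0.0945). With the zeros of UDI0055 kept as counts, 0 members were called by edgeR (27 at an unadjusted p under 0.05), with adjusted p from 0.0592. DESeq2 on the rows held by all libraries called 17 members, 14 of them shared, and 6.35% of all genes higher. The median fold change of the members stayed between 0.29 and 0.44 in all 14 alternatives, and no alternative called a member lower.

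**Figure D5:**
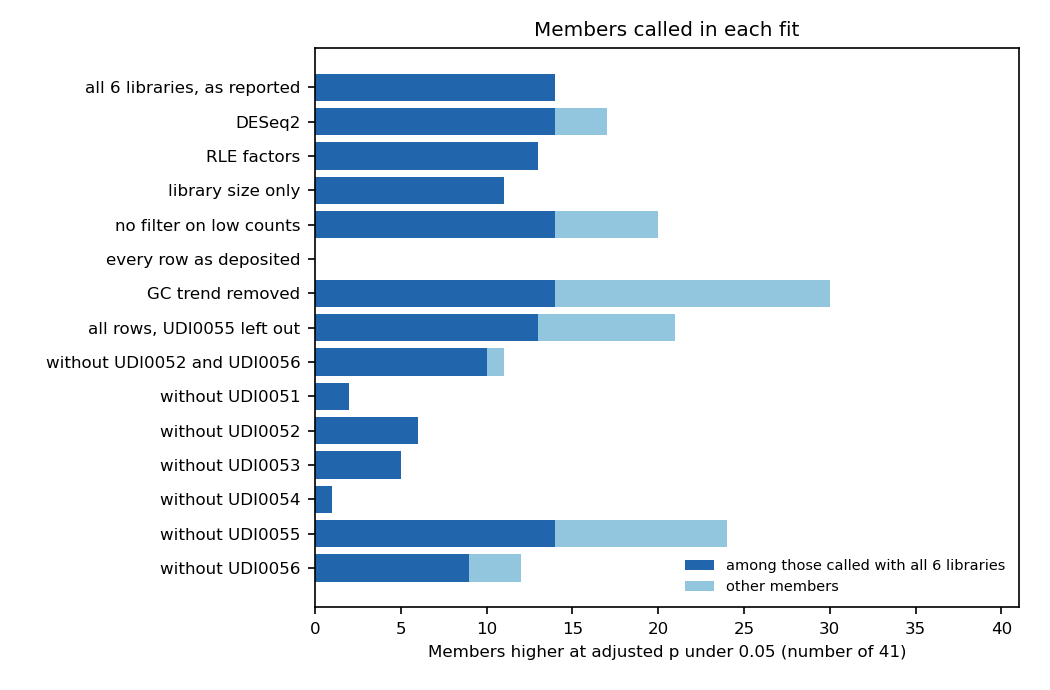
Number of the 41 members called higher (adjusted p under 0.05) with all 6 libraries as reported and under 14 alternatives; dark bars are members called with all 6 libraries, light bars others. The number runs from 0 with every row as deposited to 30 with the GC trend removed.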

How the data were processed

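Libraries were paired-end and made from poly(A) RNA, per the labels' protocols. The authors deposited raw counts per gene, without normalization, and a table that gives each column its treatment. FastQC 0.11.7, HISAT2 2.0.5, featureCounts 1.5.2 and GRCh37 are named in the submitters' processing notes. The sources used here do not give the annotation release or the strand setting of the counting, so reads of overlapping genes cannot be told apart. Columns carry no replicate number. Same-group libraries differed beyond sampling noise (chi-square per degree of freedom 4.74 to 45.0), so each was kept.

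Counts were tested in R 4.3.3 with edgeR 4.0.16 (filterByExpr, TMM factors 0.978 to 1.03, glmQLFit, glmQLFTest, treatment as the only term) on 52839 rows held by all libraries, and for DKC1 on 5 libraries with all rows. Benjamini-Hochberg adjustment ran over all genes tested, and each SE was derived from the fold change (log2) and its F statistic. The procedure was tested on simulated data. GC content came from GENCODE 29 transcripts (GRCh38), for 12189 of 13490 genes, the newer symbol UTP4 standing in for CIRH1A, and the trend was a lowess per library (span 0.3) used as an offset. DESeq2 was 1.42.0. Members, roles and lists were chosen with earlier results of these data known. Of members, those called, the extremes of each role, DKC1 and at least 2 per role are given per library, and of other lists the 2 lowest p in each direction. Lists are described by counts, without a set test. Intervals for counting error are not given, as counts per member ran from 132 to 58957.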

Additional observations from a re-analysis of the deposited data

How the results depend on the processing

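No paired analysis was possible because the columns carry no replicate numbers. All genes called higher and lower were 690 and 1097 as reported, and 22 and 125 with every row as deposited. With the GC trend removed they were 1623 and 2147, and with all rows and UDI0055 left out 1401 and 1974. With no filter they were 827 and 1676 of 24326 genes (3.4% higher). Leaving out 1 library gave 62 to 1525 higher and 278 to 1729 lower. Members higher, 14 as reported, were 0 with every row as deposited, 30 with the GC trend removed, 20 with no filter, 21 with all rows and UDI0055 left out, and 1 to 24 when 1 library was left out. With the GC trend removed, the median log2 fold changes of members moved to 0.24 for RNA polymerase I and 0.23 for snoRNP proteins. The value for RNA polymerase III, 0.31, is that of POLR3G alone. The wider RNA polymerase III list of 25 genes had a median of 0.23 as reported and 0.19 with the GC trend removed. The snoRNP median was 0.24 without UDI0052 and UDI0056, and 0.22 to 0.38 without 1 library. DKC1 had 1.13 (adjusted p = 0.675) with every row as deposited and 0.49 to 0.61 without 1 library; its other alternatives were chosen after seeing the data. Signs reversed for 4 uncalled members: POLR3G (0.31 with the GC trend removed, −0.23 to 0.0815 without 1 library, above 0 without UDI0056), GAR1 (−0.0301 with the GC trend removed, −0.0423 without UDI0052 and UDI0056), NAF1 (0.0452 with all rows and UDI0055 left out, −0.0994 to 0.0693 without 1 library, above 0 without UDI0051 or UDI0055) and PPAN (0.11 with all rows and UDI0055 left out, −0.24 to 0.13 without 1 library, above 0 without UDI0052 or UDI0055). The cause was not tested. Members that miss the threshold are not shown to be unaffected.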
